A study of Mus musculus with 24 samples.

Results

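The genes described here are 36 mouse genes chosen by name, 22 enzymes, transporters and regulators of glycolysis and 14 genes of the response to low oxygen. All 36 were found by gene ID among the 55487 genes of the deposited count table. The cells were tumor-associated macrophages sorted for CD45, CD11b and F4/80, from orthotopic tumors of the mouse colon carcinoma line MC38 in C57BL/6J mice. The tumor cells carried the tumor suppressor Apc (APC-WT) or had lost it (APC-KO). There were 2 tumors of each genotype, here called WT1, WT2, KO1 and KO2, and 6 libraries of each tumor, 24 in all. Every group shared the MC38 line, the host strain, the digestion and the sort. The macrophages came from the hosts, so the genotype is that of the surrounding tumor cells. The age of the mice, and whether the APC-KO line is 1 clone, are not given in the sources used here. The labels call the 6 libraries replicates of 1 sample. Tests between libraries therefore measure only the spread within a tumor, which may be technical, and tests of the genotype compare 2 tumors with 2.

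Glycolysis breaks glucose down to pyruvate in the cytosol, and lactate dehydrogenase and a lactate exporter carry the product out of the cell. When oxygen is plentiful, prolyl hydroxylases of the Egln family mark the alpha subunit of hypoxia-inducible factor (HIF), encoded by Hif1a, for destruction. When oxygen is scarce the subunit persists, pairs with its partner and binds a short core motif next to genes of glucose uptake, glycolysis and adaptation to low oxygen. Macrophages also raise this programme on inflammatory activation, and in tumors it is known to differ between well and poorly perfused zones.

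Total counts per library ranged from 8895722 to 93568353. Expressed genes, defined as a mean CPM, read counts scaled to library size, of 10 or more across tumors and a level of 10 or more times the background expected from silent receptor genes, made up 81.7% of all counts in WT1 and 73.6% in WT2. They made up 33.1% in KO1 and 31.7% in KO2, where loci resembling satellite repeats held 37.9% and 38.5%. Levels below are therefore scaled CPM, CPM against the scaled total of the 3941 expressed genes. They include the expected background, which was higher in APC-KO, unless its subtraction is stated. For Hk1 that background was 0.651, 4.83, 33.1 and 33.5 scaled CPM in WT1, WT2, KO1 and KO2. The genotype change without a correction for transcript length correlated with that length at a Spearman rho of -0.57 over these 3941 genes and -0.59 over 28 of the 36 genes described, as a description across genes of the same libraries. With a length offset both were near 0, at -0.02 and 0.02. Changes between genotypes are with the offset unless said otherwise, and the value without it is given where the call or the direction differs.

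RNA of the sort markers was detected in all 4 tumors, at lower levels in both APC-KO tumors than in the APC-WT tumors. Itgam, which encodes CD11b, had mean levels of 1596, 1783, 274 and 276 scaled CPM in WT1, WT2, KO1 and KO2. Adgre1, which encodes F4/80, had 1267, 1154, 268 and 282, and Ptprc, which encodes CD45, had 1135, 1158, 383 and 402.

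Of the 36 genes, 28 passed the limit for expressed genes, 18 of glycolysis and 10 of the hypoxia response. The limit was on means over the 4 tumors, so a gene could pass through its APC-WT level, where background was lower. In KO2, Pfkp had a mean of 180 scaled CPM against a background of 52.7, and Hif1a had 127 against 23.2. The counts of expressed genes below are over this set. Per kb of the longest transcript, the highest were Pkm, the pyruvate kinase that makes pyruvate, with a mean over the 4 tumors of 1420 scaled CPM per kb, and Eno1, the enolase before it, with 1168. Aldoa, the aldolase that splits the sugar, had 1020 scaled CPM per kb and Ldha, the lactate dehydrogenase subunit, had 819. Tpi1, the triose isomerase, had 476 and Mif, a macrophage cytokine and HIF target, had 403. The 28 genes spanned a wide range, down to 17.9 scaled CPM per kb for Aldoc, a second aldolase. Among glucose transport and trapping, Slc2a1, the glucose transporter GLUT1, had 131 scaled CPM per kb. Hexokinase 3, a myeloid isozyme encoded by Hk3, had 141, Hk1 had 42.7 and Hk2 had 33.0.

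RefSeq lists promoters (GRCm38.p6, 250 bases before to 50 after a start) for 34 of the 36 genes, Ero1l under its newer symbol Ero1a. The HIF core motif was searched as ACGTG and GCGTG on both strands, in windows of 300 bases. It was present at 39 of the 47 listed starts of these genes, or 83%, against 43.8% of all 32851 listed starts and 63.1% of the 3917 starts of expressed genes. A match is only a run of 5 letters, and some belong to longer motifs such as CACGTG. The upstream 250 bases are printed for 5 genes with a single listed start, with matches in capitals: Ero1l, Egln3, Slc2a1 and Gpi1, which among these had the largest differences between tumors of both genotypes, and Hk2, which did not follow them. Each line reads 5′ to 3′ on the gene's strand.
Ero1l, chr14:45318573-45318822, minus strand: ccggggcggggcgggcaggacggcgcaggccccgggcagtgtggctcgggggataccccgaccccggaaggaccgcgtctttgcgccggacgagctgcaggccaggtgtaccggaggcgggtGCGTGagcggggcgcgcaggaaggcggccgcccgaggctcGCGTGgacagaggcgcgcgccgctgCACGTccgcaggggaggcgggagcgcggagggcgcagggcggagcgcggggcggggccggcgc
Egln3, chr12:54203875-54204124, minus strand: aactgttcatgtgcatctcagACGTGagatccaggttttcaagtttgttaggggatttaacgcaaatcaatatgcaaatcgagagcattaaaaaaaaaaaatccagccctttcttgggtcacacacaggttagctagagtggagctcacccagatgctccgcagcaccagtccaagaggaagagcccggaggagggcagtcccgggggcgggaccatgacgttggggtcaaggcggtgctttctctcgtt
Slc2a1, chr4:119108495-119108744, plus strand: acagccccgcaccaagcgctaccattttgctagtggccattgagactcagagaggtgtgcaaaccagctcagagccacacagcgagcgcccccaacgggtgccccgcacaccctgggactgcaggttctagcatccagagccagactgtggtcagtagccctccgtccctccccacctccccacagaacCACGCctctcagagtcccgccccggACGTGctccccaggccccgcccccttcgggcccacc
Gpi1, chr7:34230337-34230586, minus strand: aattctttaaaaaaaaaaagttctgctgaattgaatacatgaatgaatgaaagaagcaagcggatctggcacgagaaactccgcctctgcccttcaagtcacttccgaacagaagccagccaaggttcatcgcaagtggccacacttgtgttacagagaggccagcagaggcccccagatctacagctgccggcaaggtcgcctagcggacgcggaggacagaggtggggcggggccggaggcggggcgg
Hk2, chr6:82774455-82774704, minus strand: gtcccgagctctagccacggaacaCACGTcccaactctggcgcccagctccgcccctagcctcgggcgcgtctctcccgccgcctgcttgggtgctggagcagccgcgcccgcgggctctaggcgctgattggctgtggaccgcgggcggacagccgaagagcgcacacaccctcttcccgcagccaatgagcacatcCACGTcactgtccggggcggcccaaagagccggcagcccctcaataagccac
Ero1l held 3 matches, Slc2a1 and Hk2 held 2 each, Egln3 held 1 and Gpi1 held none.

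The clearest pattern was between tumors of the same genotype. In APC-WT, 23 of the 28 genes were higher in WT2 than in WT1 by edgeR's quasi-likelihood test on libraries, 16 of 18 for glycolysis and 7 of 10 for hypoxia, against 24.7% of all 3941 expressed genes. Only Hk2 was lower, against 23% of all genes. In APC-KO the direction was the other way by tumor number: 27 of the 28 were lower in KO2 than in KO1, 17 of 18 and 10 of 10, against 17.9% of all genes, and 0 were higher, against 17.1%. The same 23 genes were higher in WT2 than in WT1 and in KO1 than in KO2, which 11.2% of all genes were. None showed the reverse (8.7% of all genes) or was higher in tumor 2 of both genotypes (1.67%). The median difference of the 28 genes was 0.47 on the log2 scale for WT2 minus WT1, against 0.03 for all genes, and -0.52 for KO2 minus KO1, against 0.02. The labels do not state whether a tumor number pairs a tumor of one genotype with a tumor of the other. In bulk samples, fewer cells of a type and less RNA per cell cannot be told apart.

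**Figure D1:**
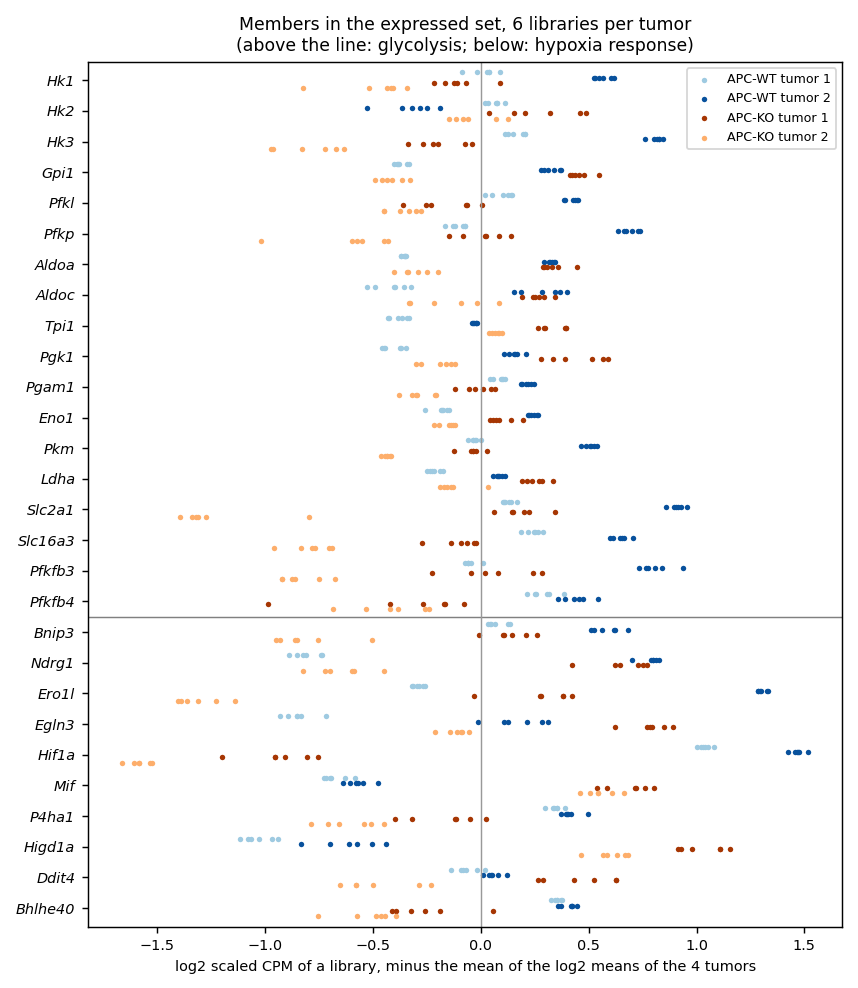
Level of each of the 28 expressed genes in every library (points, 6 per tumor, coloured by tumor), as log2 scaled CPM minus the mean of the log2 means of the 4 tumors. For most genes the libraries of WT2 and KO1 lie to the right of the other tumor of their genotype, and Hk2 departs from this in APC-WT. Every APC-WT library lies above every APC-KO library in 7 genes, Hif1a among them, against 30.1% of all expressed genes. The reverse holds in 3, Higd1a, Tpi1 and Mif, against 27.6%.

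Among the hypoxia genes, Ero1l, an oxidase that drives disulfide bond formation in the endoplasmic reticulum, had the largest difference in APC-KO and in APC-WT lay beside Ndrg1. Its lowest, median and highest libraries were at 271, 276 and 282 scaled CPM in WT1 and at 822, 829.8 and 852 in WT2. They were at 331, 425 and 453 in KO1 and at 128, 134 and 153 in KO2. The 4 tumors did not overlap, and the order ran WT2, KO1, WT1, KO2. The log2 difference was 1.60 ± 0.06 (SE; adjusted p = 1.93e-17) for WT2 minus WT1 and -1.60 ± 0.06 (adjusted p = 3.54e-17) for KO2 minus KO1.

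Ndrg1, a stress-responsive gene strongly induced by hypoxia, had libraries of 78.2, 82.2 and 87.0 scaled CPM in WT1 and 236, 252 and 257 in WT2. It had 194, 233 and 247 in KO1 and 81.8, 92.3 and 106 in KO2. Before subtracting background, the 2 tumors in which Ndrg1 was high overlapped each other, and so did the 2 in which it was low. Its expected background was 0.503, 3.73, 25.6 and 25.9 scaled CPM in WT1, WT2, KO1 and KO2. After subtracting it, the means were 82.2, 246, 203 and 66.8 in the same order, and overlap was not examined. The log2 differences were 1.60 ± 0.06 (adjusted p = 3.66e-17) in APC-WT and -1.30 ± 0.06 (adjusted p = 4.14e-15) in APC-KO. Egln3, the prolyl hydroxylase that is itself a HIF target, had medians of 25.6, 51.9, 79.7 and 43.0 scaled CPM in WT1, WT2, KO1 and KO2. Its differences were 1.02 ± 0.05 and -0.90 ± 0.06. Bnip3, which promotes removal of mitochondria, had medians of 164, 238, 172 and 87.3 scaled CPM, with differences of 0.51 ± 0.06 and -0.94 ± 0.06.

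Hif1a itself was higher in WT2 than in WT1 by 0.43 ± 0.05 and lower in KO2 than in KO1, at -0.66 ± 0.05. Ddit4, an inhibitor of mTORC1 signalling, passed the test in APC-KO, at -0.93 ± 0.07 (adjusted p = 1.26e-10), and stood at 0.12 ± 0.07 (adjusted p = 0.158) in APC-WT. P4ha1, a collagen prolyl hydroxylase subunit, and Bhlhe40, a transcriptional repressor, were likewise lower in KO2 than in KO1, at -0.45 ± 0.06 and -0.27 ± 0.06. In APC-WT, P4ha1 stood at 0.07 ± 0.06 (adjusted p = 0.353) and Bhlhe40 at 0.05 ± 0.06 (adjusted p = 0.4999). Whether the size of a gene's difference differed between the genotypes was not tested.

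At the entry of glycolysis, Slc2a1 had libraries of 405, 411 and 424 scaled CPM in WT1 and 686, 709 and 732 in WT2. It had 394, 427 and 479 in KO1 and 143, 152 and 218 in KO2. WT1 and KO1 overlapped, and the other 2 tumors stood clear above and below them. The differences were 0.78 ± 0.07 (adjusted p = 8.59e-10) and -1.41 ± 0.07 (adjusted p = 3.36e-14).

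The hexokinases, which trap glucose in the cell as glucose 6-phosphate, split. Hk1 was higher in WT2 than in WT1 by 0.55 ± 0.06 and Hk3 by 0.65 ± 0.05, and both were lower in KO2 than in KO1, at -0.39 ± 0.06 and -0.61 ± 0.05. Hk2, the inducible isozyme, had libraries of 182, 189 and 194 scaled CPM in WT1 and only 124, 146 and 158 in WT2, without overlap. Its difference there was -0.38 ± 0.07 (adjusted p = 3.60e-05). In APC-KO it was lower in KO2 as were the others, at -0.32 ± 0.07 (adjusted p = 6.72e-04), with libraries of 184 to 252 in KO1 overlapping those of 162 to 196 in KO2. Being higher in tumor 1 of both genotypes, as Hk2 was, held for 1.83% of all genes.

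In the middle steps, Gpi1, the glucose phosphate isomerase, had medians of 506, 825, 898 and 492 scaled CPM in WT1, WT2, KO1 and KO2. Its libraries did not overlap within either genotype, and the differences were 0.698 ± 0.03 (adjusted p = 3.47e-16) and -0.87 ± 0.03 (adjusted p = 8.66e-18). Of the phosphofructokinases, which commit the sugar to glycolysis, Pfkp differed by 0.798 ± 0.07 and -0.60 ± 0.07, and Pfkl by 0.32 ± 0.05 and -0.20 ± 0.05. Pfkfb3, which makes the activator of phosphofructokinase, had medians of 243, 438, 262 and 139 scaled CPM, with differences of 0.86 ± 0.06 and -0.90 ± 0.06. Its relative Pfkfb4 did not pass the test in either genotype, with 0.15 ± 0.10 (adjusted p = 0.202) and -0.096 ± 0.10 (adjusted p = 0.516).

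Aldoa had medians of 1205, 1927, 1918 and 1237 scaled CPM in WT1, WT2, KO1 and KO2. Its differences were 0.68 ± 0.03 and -0.64 ± 0.03, and the 2 high tumors overlapped each other, as did the 2 low ones. Pgk1, the phosphoglycerate kinase that makes the first ATP of the pathway, differed by 0.56 ± 0.05 and -0.65 ± 0.05, Eno1 by 0.43 ± 0.02 and -0.26 ± 0.02, and Pkm by 0.53 ± 0.02 and -0.397 ± 0.02. For the lactate end of the pathway, Ldha differed by 0.2995 ± 0.03 and -0.38 ± 0.03 and Slc16a3, the lactate exporter MCT4, by 0.40 ± 0.04 and -0.69 ± 0.04. Tpi1 differed by 0.35 ± 0.02 and -0.27 ± 0.02, and the weakly expressed Aldoc by 0.71 ± 0.06 and -0.41 ± 0.07. Higd1a differed by 0.43 ± 0.06 and -0.43 ± 0.06. The smallest called differences of the APC-WT tumors were those of Mif (0.11 ± 0.04, adjusted p = 0.0475) and Pgam1, the phosphoglycerate mutase (0.13 ± 0.03, adjusted p = 0.00154), and neither passed with the length offset. In APC-KO, Mif was at -0.13 ± 0.04 (adjusted p = 0.0198), which did not pass with the offset, and Pgam1 at -0.27 ± 0.03.

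**Figure D2:**
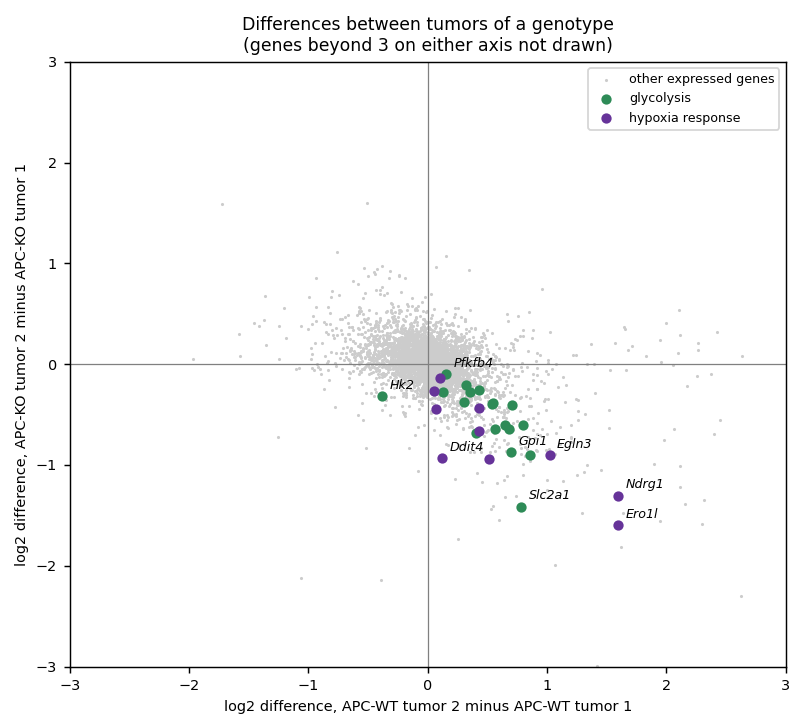
Log2 difference of each expressed gene between the tumors of a genotype, APC-WT on the horizontal axis and APC-KO on the vertical axis, with the glycolysis genes in green and the hypoxia genes in purple over the other expressed genes in grey. All 28 genes lie below 0 on the vertical axis and 27 lie right of 0 on the horizontal axis, with Hk2 the exception.

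Over the 28 genes the differences in APC-WT and in APC-KO correlated at a Pearson r of -0.76, against -0.37 over all 3941 genes. Genes of 1 library share its depth and composition, so this is a description. The direction in APC-WT depended on the scale. When the scale was set by TMM over all genes that passed a filter on low counts, background and satellite-like loci included, the median expressed gene lay at -1.31 for WT2 minus WT1, and 32 of the 36 genes were called lower in WT2 and 2 higher. Relative to that median, 27 of the 28 expressed genes were still above it. In APC-KO the median expressed gene lay at -0.001 on the same scale, and 27 genes were again called lower in KO2. Without the 8 libraries that held a value far from the other libraries of their tumor, 22 genes were called higher in WT2 and 26 lower in KO2. Shares of all genes called with TMM over all genes or without those libraries are not given here. These counts alone therefore show no change particular to the genes described.

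Markers of cell types also differed between tumors of a genotype, in differing directions. Of 12 neutrophil markers 5 were expressed, and all 5 were higher in WT2 than in WT1 and lower in KO2 than in KO1. The mean of the summed level of the 12 was 426, 765, 656 and 392 scaled CPM in WT1, WT2, KO1 and KO2, with libraries from 422 to 798 in APC-WT and from 354 to 705 in APC-KO. S100a9, a calcium-binding protein abundant in neutrophils, had means of 18.3, 81.5, 185 and 70.7 scaled CPM. Of 12 epithelial markers 6 were expressed, all 6 higher in WT2, but 4 of them were higher, not lower, in KO2, and their sums were 229.9, 797, 422 and 495, with libraries from 224 to 817 in APC-WT and from 368 to 527 in APC-KO. Of 12 sort and macrophage markers 11 were expressed. In WT2 against WT1, 7 were lower and 1 higher, and in KO2 against KO1, 4 were higher and 2 lower. Mrc1, the mannose receptor, had means of 369.9, 161, 169.6 and 249.9 scaled CPM. All 3 expressed fibroblast markers of 10 moved opposite to the glycolysis genes in both genotypes, with sums of 1657, 982, 447 and 628 and libraries from 939 to 1717 in APC-WT and from 373 to 663 in APC-KO. The T and NK cell sum was 34.8, 67.2, 162 and 329. None of the 12 T and NK cell markers, and none of the 10 dendritic cell and 8 erythroid markers reached the expressed limit, and no marker gene was at 0 in all libraries. Their part in the result was not tested.

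**Figure D3:**
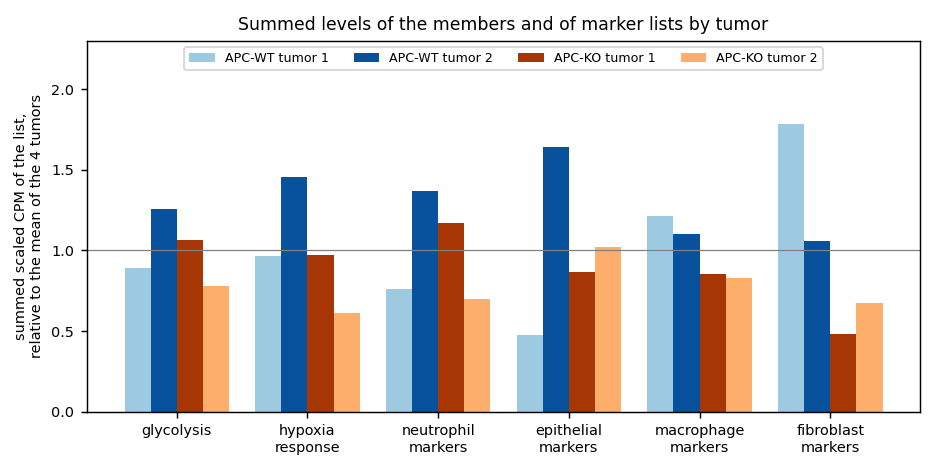
Summed scaled CPM of each list in each tumor (bars, mean of 6 libraries), divided by the mean of the 4 tumors. Glycolysis, hypoxia and neutrophil sums are higher in WT2 and KO1 than in the other tumor of the genotype, while the epithelial sum is not higher in KO1.

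Between genotypes few of the genes passed the test. With the length offset, 2 of 28 were higher in APC-KO by the quasi-likelihood test of edgeR on summed tumors, against 24.9% of all expressed genes, and 2 were lower, against 24.4%. The median change was -0.23 on the log2 scale, against -0.03 for all genes. Without the offset 2 were higher, against 32.7%, and 4 lower, against 30.7%, with a median of -0.34 against 0.006. Called both ways were Higd1a, higher (18.9% of all genes), and Hif1a, lower (19.5%). The larger of the 2 differences within a genotype exceeded the genotype change without the offset in 18 of the 28 genes, against 22.5% of all genes, and both differences exceeded it in 12 of the 28, against 10%.

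Hif1a (chr12:73901375-73947530, GRCm38) had libraries of 759, 777 and 803 scaled CPM in WT1 and 1018, 1049 and 1086 in WT2. It had 165, 199 and 225 in KO1 and 119.7, 126 and 132 in KO2. Every APC-WT library lay above every APC-KO library, as in 7 of the 28 genes against 30.1% of all genes. The change was -1.91 ± 0.30 (adjusted p = 0.00892) with the offset and -2.43 ± 0.30 (adjusted p = 0.00279) without it. Over 15 other settings its adjusted p ran from 1.92e-09 to 0.0974. With any single tumor left out the change lay between -2.29 and -1.62, but 1 genotype is then a lone tumor assumed to vary like the tumors of the other.

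Higd1a (chr9:121848563-121858362), which encodes a small mitochondrial protein induced by hypoxia, went the other way. Its libraries were at 23.7, 24.9 and 26.8 scaled CPM in WT1 and at 28.9, 34.1 and 37.96 in WT2. They were at 96.9, 106 and 114 in KO1 and at 71.1, 78.4 and 82.5 in KO2. Every APC-KO library lay above every APC-WT library, as in 3 of the 28 genes (with Tpi1 and Mif) against 27.6% of all genes, and the change was 1.71 ± 0.22 (adjusted p = 0.00569) with the offset and 1.68 ± 0.22 (adjusted p = 0.00325) without it. With TMM over all genes, the median expressed gene lay at -4.01 for APC-KO minus APC-WT. Higd1a stood there at -2.23 and Hif1a at -6.33, and neither passed, nor did any other of the 53705 genes tested. Over the 15 settings the adjusted p of Higd1a ran from 6.31e-11 to 0.121.

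The other genotype calls depended on the length offset. Hk2 (5513 bp) was higher with it, at 0.796 ± 0.18 (adjusted p = 0.0211), and at 0.28 ± 0.20 (adjusted p = 0.283) without it. With the lone-tumor assumption, it did not pass without KO1 (adjusted p = 0.0964) or without KO2 (adjusted p = 0.0521). Pgam1 (1775 bp) was lower with it, at -0.57 ± 0.15 (adjusted p = 0.0317), and at -0.26 ± 0.16 (adjusted p = 0.213) without it, and under the same assumption it did not pass when any single tumor was left out. Mif, whose longest transcript has only 600 bp, turned its direction: every APC-KO library, from 303 to 384 scaled CPM, lay above every APC-WT library, from 133 to 158, for a change of 1.29 ± 0.13 (adjusted p = 0.00166) without the offset, and the change was -0.32 ± 0.11 (adjusted p = 0.0703) with it. A few longer genes were lower without the offset alone. Pfkfb4 (3488 bp) was at -0.67 ± 0.11 (adjusted p = 0.00574) without and -0.26 ± 0.10 (adjusted p = 0.0974) with the offset. P4ha1 (4043 bp) was at -0.72 ± 0.18 (adjusted p = 0.0218) and -0.24 ± 0.17 (adjusted p = 0.288), and Bhlhe40 (3113 bp) at -0.71 ± 0.15 (adjusted p = 0.0142) and -0.37 ± 0.15 (adjusted p = 0.0916).

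**Figure D4:**
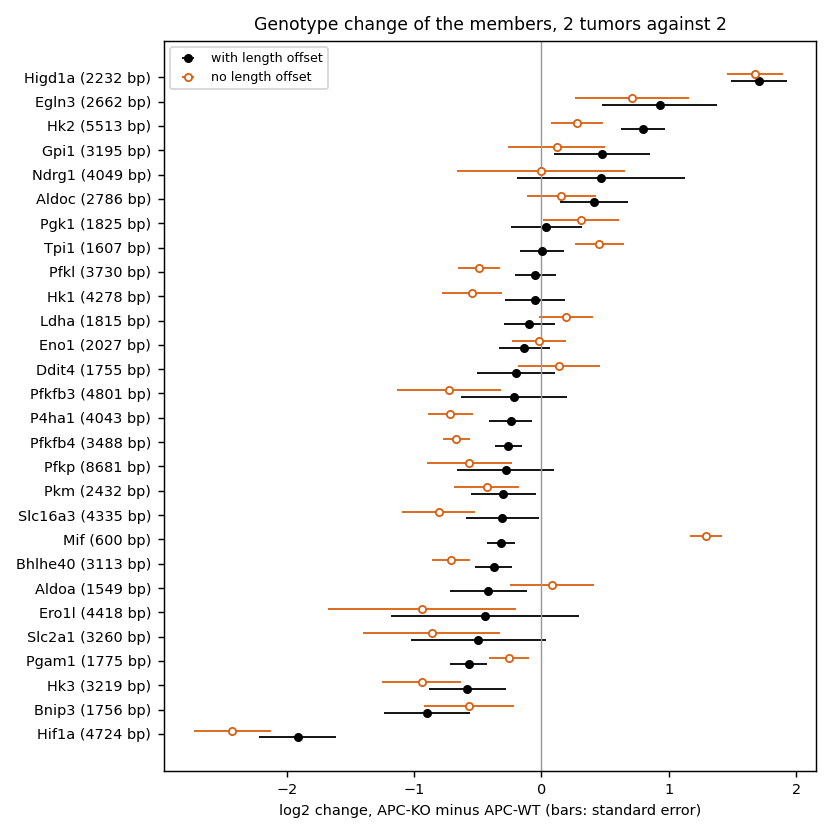
Log2 change of each of the 28 expressed genes, APC-KO minus APC-WT, over 2 tumors of each genotype, with the length offset (black) and without it (orange, open), and bars of 1 standard error. Hif1a lies far to the left and Higd1a to the right in both fits, while Mif moves from 1.29 without the offset to -0.32 with it.

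The remaining 20 genes passed in neither fit, and several had wide errors. Ero1l was at -0.44 ± 0.74 and Ndrg1 at 0.47 ± 0.66 with the offset. Slc2a1 was at -0.498 ± 0.53, Pfkfb3 at -0.21 ± 0.42 and Egln3 at 0.93 ± 0.45. Without the offset these 5 stood at -0.94, -0.001, -0.86, -0.72 and 0.71. Bnip3 was at -0.897 ± 0.34 (adjusted p = 0.0845), Hk3 at -0.58 ± 0.30, Aldoa at -0.42 ± 0.30, Gpi1 at 0.47 ± 0.38 and Slc16a3 at -0.31 ± 0.29. Without the offset they stood at -0.57, -0.94, 0.08, 0.12 and -0.81, so Aldoa turned its sign, as did Ldha, from -0.09 to 0.19, and Ddit4, from -0.20 to 0.14. The changes of Pkm, Eno1, Ldha and Tpi1 lay between -0.2999 and 0.005 with the offset and between -0.43 and 0.45 without it, and the other values stand in the plot of genotype changes. In tests on libraries, which do not count tumors as the unit and share tumors with each other, 5 genes were lower in APC-KO with the length offset in all 4 of the pairs KO1 or KO2 against WT1 or WT2, against 30.8% of all genes. These were Hif1a, Pgam1, Bnip3, Mif and Bhlhe40. Hk2 and Higd1a were higher in all 4, against 29.7%. Without the offset 8 were lower in all 4, against 35.6%, and 3 higher, against 34.1%. Mif was then higher in all 4, by 1.12 to 1.36, while Bnip3 stood at 0.06 for KO1 minus WT1 and Hk2 at -0.095 for KO2 minus WT1. Macrophage markers moved between genotypes as well: with the offset 6 of the 11 expressed were lower in APC-KO and 0 higher, and their summed level ranged from 26700 to 30270 scaled CPM over APC-WT libraries and from 20110 to 21780 over APC-KO libraries. Of the neutrophil markers 2 of 5 were lower, of the fibroblast markers 2 of 3, and of the epithelial markers 0 of 6 passed. Without the offset these counts were 5 of 11, 1 of 5, 3 of 3 and 0 of 6. Their part in the genotype changes was not tested.

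The 8 genes outside the expressed set were Gapdh, Pfkm, Eno2, Pdk1, Egln1, Ankrd37, Adm and P4ha2. For most, the expected background was a sizeable share of their level in APC-KO. Eno2, the neuronal enolase, had medians of 2.75 and 7.39 scaled CPM in WT1 and WT2 against an expected background of 0.359 and 2.66, and of 34.9 and 31.5 in KO1 and KO2 against 18.3 and 18.5. Pfkm, the muscle phosphofructokinase, had medians of 11.2 and 11.6 in APC-WT and 27.5 and 26.2 in APC-KO, against backgrounds of 0.255, 1.89, 13.0 and 13.1. Egln1, the main prolyl hydroxylase that marks HIF, had medians of 13.6 and 13.6 in APC-WT and 54.1 and 51.2 in APC-KO, against backgrounds of 0.274, 2.03, 13.95 and 14.1. P4ha2, a collagen prolyl hydroxylase subunit, had 9.41, 18.99, 41.0 and 37.9 against 0.476, 3.53, 24.2 and 24.5. Ankrd37, a HIF target of unclear role, had 5.82, 10.02, 33.9 and 19.2 against 0.117, 0.871, 5.97 and 6.05, and Adm, the vasodilator adrenomedullin, had 2.54, 6.36, 15.8 and 13.3 against 0.124, 0.916, 6.28 and 6.37. Pdk1, the kinase that blocks pyruvate entry into the mitochondrion, had medians of 105, 121, 92.0 and 86.6 against backgrounds of 0.593, 4.40, 30.2 and 30.6. In all of these but Pdk1, every APC-KO library lay above every APC-WT library, and their background moved the same way. That order held in 27.6% of expressed genes, and its share among genes outside that set was not measured. After subtracting expected background, P4ha2 had means of 8.92, 15.7, 16.8 and 12.1 in WT1, WT2, KO1 and KO2, no longer in that order. Egln1 had 13.4, 11.6, 39.9 and 37.7 and Pfkm 11.1, 9.61, 14.8 and 13.2. Eno2, Ankrd37 and Adm also kept higher means in both APC-KO tumors.

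For Gapdh, the enzyme often used as a reference gene, most counts lay under other gene IDs. The gene on chromosome 6 (chr6:125161715-125166467) had means of 34.4, 41.7, 81.8 and 68.6 scaled CPM in WT1, WT2, KO1 and KO2. Annotated pseudogenes that share at least 0.5 of their 15-base words with it, 86 in all, together had 1341, 1642, 3058 and 2553, or from 97.4% to 97.5% of the sum. Gapdh with its copies was therefore at 1375 ± 36.9, 1684 ± 31.2, 3140 ± 39.1 and 2621 ± 58.0 scaled CPM (SD, n = 6 libraries). Summed in this way it followed the other glycolysis genes within each genotype, with 0.25 ± 0.03 for WT2 minus WT1 (edgeR adjusted p = 1.28e-07) and -0.27 ± 0.03 for KO2 minus KO1 (adjusted p = 6.18e-08). Its genotype change was 0.96 ± 0.19 (adjusted p = 0.0111) without the length offset and 1.33 ± 0.19 (adjusted p = 0.00668) with the offset for its longest transcript of 3289 bp. With the offset for its principal isoform of 1420 bp it was 0.44 ± 0.17 and no longer passed (adjusted p = 0.0928). Copies held from 12.2% to 14.5% of the counts of Eno1, from 11.1% to 13.8% of Pgam1 and from 7.19% to 13.7% of Pgk1, so the levels of these genes are uncertain by about that share. Eno1b was included by name among the copies of Eno1, with 159 of their 297.5 scaled CPM in WT1. For the 8 other genes with such copies the share was at most 6.61%.

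**Figure D5:**
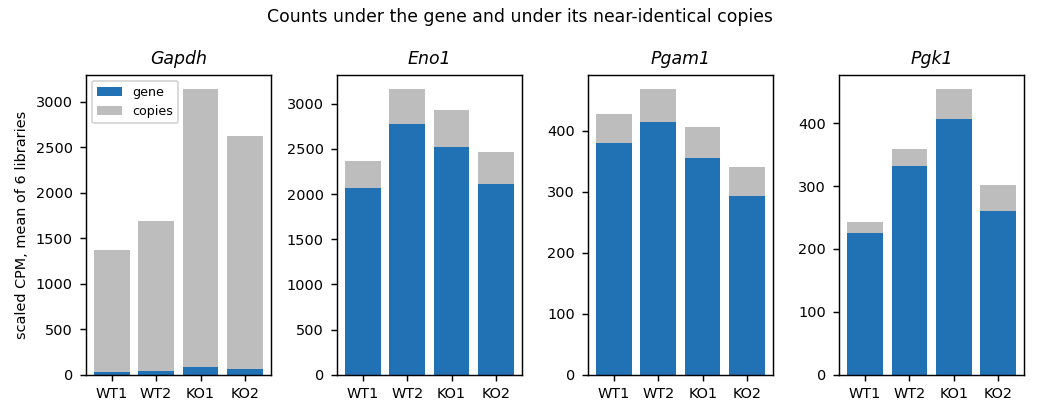
Scaled CPM under the gene itself (blue) and under its near-identical copies (grey), mean of 6 libraries per tumor, for the 4 genes with the largest share in copies. Nearly the whole Gapdh signal lies under copies, and the gene with copies is higher in both APC-KO tumors.

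Other genes of the pathway gave mixed genotype changes, given with the offset first. Of 24 other glycolysis and lactate genes 5 were expressed, of which 0 were higher and 1 lower in APC-KO: Minpp1, an inositol polyphosphate phosphatase, at -0.45 ± 0.11 (adjusted p = 0.0272). The next by p were Ldhb, the second lactate dehydrogenase subunit, at -0.499 ± 0.20, the phosphoglucomutases Pgm2 at -0.26 ± 0.15 and Pgm1 at -0.29 ± 0.19, which did not pass. Without the offset Ldhb turned to 0.25 (adjusted p = 0.265), also not passing, and 2 of the 5 were lower. Of 16 genes of pyruvate fate and gluconeogenesis 6 were expressed. Of these Pdha1, a subunit of pyruvate dehydrogenase, was lower by -0.85 ± 0.11 and Pdk3, a kinase that inhibits that enzyme, by -0.76 ± 0.11, and Pdhb, its other E1 subunit, was higher by 0.48 ± 0.11. Mpc1, part of the mitochondrial pyruvate carrier, was at -0.52 ± 0.19 and turned to 0.63 without the offset, passing in neither fit (adjusted p = 0.0764 and 0.054). Without the offset 3 of the 6 were lower and 1 higher.

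Of 8 pentose phosphate genes 6 were expressed, 2 higher and 2 lower. The first enzyme of that pathway, G6pdx, was lower by -1.29 ± 0.11 (adjusted p = 0.00319; means of 138, 145, 53.4 and 45.1 scaled CPM), and the lactonase Pgls was higher by 1.91 ± 0.13 (adjusted p = 0.00268; means of 65.1, 62.5, 181 and 215). Pgd was higher by 0.46 ± 0.13 and Rpe lower by -0.47 ± 0.13, and Pgd stood at 0.03 without the offset (adjusted p = 0.855), where 1 of the 6 was higher and 2 lower.

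Of 12 oxygen-sensing genes 6 were expressed, and 2 were higher. Rbx1, the RING subunit of the ubiquitin ligase that marks HIF for destruction, was higher by 1.60 ± 0.10 (adjusted p = 0.0026) and Eloc, elongin C of the same ligase, by 0.46 ± 0.10 (adjusted p = 0.0201). Egln2, another prolyl hydroxylase, was at 0.17 ± 0.13 and Vhl, the substrate receptor, at 0.21 ± 0.17, and neither passed. Without the offset Vhl stood at -0.05 and 3 of the 6 were higher. The third was Elob, elongin B of the same ligase, named after its values were seen, which went from 0.04 ± 0.10 (adjusted p = 0.729) to 1.69 (adjusted p = 0.00112).

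Of 33 other HIF targets 13 were expressed, 1 higher and 4 lower in APC-KO. Vegfa, the vascular growth factor, was lower by -1.61 ± 0.17 (adjusted p = 0.00396), with means of 2620, 2708, 671 and 589 scaled CPM in WT1, WT2, KO1 and KO2. Wsb1 was lower by -1.06 ± 0.12 and Ccng2 by -0.53 ± 0.12, and Mxi1, a MYC antagonist, was higher by 0.74 ± 0.21 (adjusted p = 0.0388). Without the offset Mxi1 stood at 0.23 (adjusted p = 0.314), and the 1 gene then called higher was Fam162a, named after its values were seen, at 1.36 (adjusted p = 0.0144), against -0.09 ± 0.27 with the offset. Between tumors of a genotype 5 of the 13 were higher in WT2 and 3 lower, and 6 were lower in KO2 and 1 higher. Nos2, the inducible nitric oxide synthase, chosen after its values were seen, had means of 172, 1058, 369 and 74.9 scaled CPM, and differed by 2.62 and -2.30 (adjusted p = 6.23e-23 and 4.47e-22). Vegfa did not pass within either genotype, at 0.05 (adjusted p = 0.7704) and -0.19 (adjusted p = 0.249).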

How the data were processed

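The deposited table of the authors holds raw counts of 24 libraries for 55487 genes. Tools named in the submitters' processing notes are HISAT2, StringTie and bcl2fastq 2.20.0, with build mm9; strand, settings and annotation are not given in the sources used here. Without strand, reads of overlapping and antisense genes cannot be told apart. Symbols, positions and lengths came from GENCODE M21 (GRCm38) by gene ID, matched for 55141 IDs, so coordinates are those of GRCm38.

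From these counts, background per exonic kb was estimated from 1972 Olfr and Vmn receptor genes, and 13 satellite-like loci were left out of the 3941 expressed genes. Aldoa has more than 1 ID in the annotation, and the main gene was used. Counts were tested with edgeR 4.0.16 (R 4.3.3) by its quasi-likelihood test, with TMM over expressed genes and Benjamini-Hochberg adjustment over all genes tested at 0.05. For the genotype, the 6 libraries of a tumor were summed, 2 tumors against 2, with a loess offset (span 0.5) on longest-transcript length (log2). Tumors were compared over their libraries, within a genotype without the offset and in APC-KO and APC-WT pairs with it. The SE came from the change and its F statistic. limma 3.58.1 and DESeq2 1.42.0 were alternatives. Figures and promoters used Python 3.11.15, pandas 2.3.3, numpy 2.4.6 and matplotlib 3.10.9. The edgeR genotype test, with and without the offset, and the comparison of KO2 with KO1 over libraries were run on simulated counts. The other settings were not simulated. The spread between simulated tumors and between simulated libraries was a fixed value, not one estimated from these data.

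Members, lists, the expressed set and the offset were chosen with earlier results of these data known. Every member was accounted for; those past the threshold or differing between fits are named with values, and of other lists up to 4 genes with the smallest genotype p.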

Additional observations from a re-analysis of the deposited data

Results flagged for a closer look

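In 9 of 144 sets of 6 libraries (36 genes in 4 tumors), 1 library lay far from the others by Dixon's test at 95%, which chance gives in about 1 in 20 sets; no explanation was tested. In APC-KO tumor 2, Slc2a1 stood at 218 scaled CPM in library 3 (others 143 to 156) and Ankrd37 at 28.9 in the same library (others 15.5 to 20.1). Also in that tumor, Ldha stood at 1509 in library 1 (others 1294 to 1347) and Pfkp at 134 in library 4 (others 179 to 202). In APC-KO tumor 1, Ero1l stood at 331 in library 1 (others 408 to 453). In APC-WT tumor 1, Eno1 stood at 1960 in library 3 (others 2066 to 2122) and Pfkfb3 at 255 in library 6 (others 240.2 to 246). In APC-WT tumor 2, Ndrg1 stood at 236 in library 1 (others 250.4 to 257) and P4ha1 at 279 in library 4 (others 256 to 264).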

How the results depend on the processing

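The count of genes lower in APC-KO (2) became 4 without the length offset, 0 with TMM over all genes, 8 with all genes on the scale of expressed genes, 9 with no filter on low counts, 5 with the DESeq2 test and 1 after subtracting expected background; the count higher (2) became 0, 8 and 9 with TMM over all genes, no filter and all genes on the expressed scale. The 0 with TMM over all genes is by edgeR, where 0 of all 53705 genes passed, with a lowest adjusted p of 0.0974. An unadjusted p under 0.05 was found there for 29 of the 36 genes and for 18647 of the 53705. Leaving out 1 tumor each, where the lone tumor is assumed to vary like the other genotype's, gave from 1 to 3 lower and from 1 to 4 higher. Genes lower in all 4 tumor pairs (5) became 8 without the offset, against 35.6% of all genes. With TMM over all genes, where the median expressed gene lay at -4.01 for the genotype, lower became 35 and higher (2) became 0. Genes higher in WT2 than in WT1 (23) became 2 and lower (1) became 32 with TMM over all genes, where the median expressed gene lay at -1.31. The cause of these changes in counts was not tested. With TMM over all genes, all genes on the expressed scale or no filter, all 36 genes were tested and not only the 28 expressed. Apart from the 0 above, shares of all genes called in these settings are not given here. Their counts therefore show no change particular to these genes. Hk2 stood at -3.86 and Higd1a at -2.23 for the genotype with TMM over all genes, and Mif at 1.29 in the 3 settings without the offset. With TMM over all genes, the differences of WT2 minus WT1 that turned were Hk1 -0.79, Hk3 -0.69, Gpi1 -0.64, Pfkl -1.01, Pfkp -0.54, Aldoa -0.66, Aldoc -0.63, Tpi1 -0.99, Pgk1 -0.78, Pgam1 -1.21, Eno1 -0.91, Pkm -0.80, Ldha -1.04, Slc2a1 -0.56, Slc16a3 -0.93, Pfkfb3 -0.48, Pfkfb4 -1.18, Bnip3 -0.83, Egln3 -0.32, Hif1a -0.91, Mif -1.23, P4ha1 -1.27, Higd1a -0.91, Ddit4 -1.22 and Bhlhe40 -1.28.

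With the tumor number as a replicate block, 1 gene was lower in APC-KO (Hif1a) and 2 higher, and with the library number as a block 22 were higher in WT2 and 27 lower in KO2. Shares of all genes called with these blocks are not given here. Libraries of the same number in different tumors correlated in their deviations from -0.50 to 0.79 (median -0.02), over 0.1 in 9 of 36 pairs. Those of other numbers ran from -0.85 to 0.91 (median 0.006), over 0.1 in 61 of 180 pairs. The numbers thus gave no sign of pairing libraries. Libraries of a tumor differed beyond sampling noise. The other settings (principal isoform, GC content, limits of 5 or 20 CPM, DESeq2 size factors, limma, copies added) kept both genotype counts within 1.5 times, and 8 libraries removed, chosen after seeing the data, left 2 and 2. With 2 tumors per genotype, small genotype changes may go undetected.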
